A study of Saccharomyces cerevisiae with 2 samples.

Results

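Pairs of a mitochondrial with a nuclear MspI fragment are described here for 2 media, glycerol lactate and galactose. They reached 3 counts only when sequences with several genomic positions were kept. The paper chose 3 as its noise cut-off for uniquely mapped sequences. No cut-off was derived here with repeated sequences kept, so 3 counts do not place a pair above noise. Pairs were chosen by their all mapped and uniquely mapped counts. A pair was taken when its count was at least 3 in the table of all mapped sequences and below 3 in the table of uniquely mapped sequences of the same medium, with the ribosomal DNA (rDNA) of chromosome XII (451474 to 469370) left out. In glycerol lactate 668 of 100559 listed mitochondrial to nuclear (Mito-nDNA) pairs met this rule, which is 0.664%. In galactose 375 of 36945 did, which is 1.02%. As a scale, 1876 pairs (1.87%) and 451 pairs (1.22%) reached 3 counts at all in the all mapped tables. With uniquely mapped sequences alone, 1208 pairs of glycerol lactate (1.64% of those listed with uniquely mapped sequences) and 76 of galactose (0.305%) reached it. The pairs that met the rule in either medium numbered 783, and 260 of them met it in both. The level of these counts is therefore a description, and no test was made on it.

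Genome conformation capture (GCC) cross-links chromatin, cuts it with MspI, ligates the ends and reads out which fragments were joined, so that a pair's count is the number of its sequenced ligation products. Both cultures were the haploid laboratory strain BY4741, which lacks the marker genes HIS3, LEU2, MET15 and URA3, grown at 30 °C to an OD600 of 0.6 in synthetic complete medium with glycerol lactate or with galactose, and cross-linked with 2% formaldehyde for 10 min. The 2 biological replicates of each medium were combined by the authors into 1 library. The spread between replicates cannot be computed from the combined tables, and each comparison is one of 2 libraries. The all mapped tables held 10160059 counts in glycerol lactate and 8474217 in galactose. Of uniquely mapped sequences there were 3221104 and 2338837 counts.

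Yeast respires on glycerol and lactate and both respires and ferments on galactose. Its mitochondrial genome encodes a few subunits of the respiratory chain (COX1, COX2, COX3, COB) and of ATP synthase, the ribosomal protein Var1, 2 rRNAs and a set of tRNAs, and between these genes lie long AT-rich stretches with many short GC-rich repeats. In the nuclear genome the main repeated sequences outside the rDNA are the X and Y' elements of the chromosome ends, the Ty retrotransposons with the long terminal repeats (LTRs, delta and sigma among them) that they leave behind, the tRNA genes and a few gene families. Pieces of mitochondrial DNA are also found in the nuclear chromosomes. A read from any repeated sequence has no single position. How the authors shared such a read among its positions was not stated in the sources used here, so a high count can belong to any copy of a sequence.

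Counts were spread very unevenly. The lowest count was 3 by the rule, the median was 4 in glycerol lactate and 5 in galactose, and the highest was 2562 and 2648. The 5 highest pairs held 61.9% of the 14091 counts of glycerol lactate and 64.9% of the 14285 counts of galactose. Of the 668 pairs in glycerol lactate, 527 had no uniquely mapped count, 66 had 1 and 75 had 2. Of the 375 in galactose these numbers were 359, 9 and 7. Near the threshold, 282 pairs in glycerol lactate and 105 in galactose had a count of exactly 3, while 9410 and 1715 pairs lay just outside with a count of 2. Pairs of added control DNA were counted in the same way. The controls differed between the media, since galactose held a fragment added before the ligation step besides the pUC19 plasmid added after it, and glycerol lactate held pUC19 only. With all mapped sequences, 2 control pairs reached 3 counts in glycerol lactate, both with nuclear fragments, and 2 did in galactose, both with mitochondrial fragments. None of the control pairs exceeded 3, and with uniquely mapped sequences none exceeded 2.

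The highest pairs joined chromosome ends to COB, the gene of cytochrome b. The fragment at 6437-8875 of chromosome IX carries part of a Y' element, the X element with its core and combinatorial repeats, and PAU14, a member of the seripauperin family that is induced in anaerobic cells. With the mitochondrial fragment at 40385-41560, inside COB and the reading frame of its intron maturase BI4, it had 2562 counts in glycerol lactate and 2612 counts in galactose. The fragment at 6420-8858 of chromosome X has the same length of 2439 bp and the same elements, with PAU1 and the replication origin ARS1002. It was joined to the same COB fragment 2507 and 2648 times. All of these counts were 0 with uniquely mapped sequences.

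The counts of these chromosome ends were split almost evenly. Chromosome IX held 50.5% of their sum in glycerol lactate (exact binomial 95% interval 49.2 to 51.9). In galactose its share was 49.7% (48.3 to 51). The count between these ends, the highest nuclear count of either, was 3347 in glycerol lactate and 3708 in galactose. None of the 10927 nuclear counts of the chromosome IX fragment in glycerol lactate was kept when only uniquely mapped sequences were used. Their other mitochondrial partners were few and low. The chromosome IX fragment was listed with 21 mitochondrial fragments in glycerol lactate and 3 in galactose, and the 2562 and 2612 counts with COB made up nearly all of its 2586 and 2614 mitochondrial counts.

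Another pair of nuclear fragments met COB further along the gene, past 1 fragment of 360 bp. At 188874-190020 of chromosome I lies a delta element (YARWDELTA7) and no gene, and at 404228-405350 of chromosome VII lie 2 delta elements, 1 sigma element and MST27, which encodes a membrane protein of the COPI vesicle pathway. The chromosome I fragment had 1251 counts in glycerol lactate and 1465 counts in galactose with the mitochondrial fragment at 41921-43101 (COB, BI4). The chromosome VII fragment was joined to it 1042 and 1181 times. Of their sum 54.6% lay on chromosome I in glycerol lactate (52.5 to 56.6), and 55.4% did in galactose (53.4 to 57.3). The intervals of these splits, here and for the chromosome ends, assume that each read was given to 1 position. How reads were shared was not stated, so whether the split differs from an even one was not tested. These fragments were joined to each other 1426 and 1266 times, of which 113 and 106 were uniquely mapped. Of the nuclear counts of the chromosome I fragment 15% were kept in glycerol lactate with uniquely mapped sequences, and of those of the chromosome VII fragment 4.19%.

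The fifth pair of this size had no annotated repeat on the nuclear side. The fragment at 682484-687197 of chromosome XII covers CMG1 and YCS4, the gene of a condensin subunit, and had 1361 counts in glycerol lactate and 1362 counts in galactose with the mitochondrial fragment at 6223-8240, annotated as rRNA. Only 2 and 0 of these counts were uniquely mapped. In contrast to the chromosome ends, 94.2% of the nuclear counts of this fragment in glycerol lactate were uniquely mapped, with its neighbours on either side foremost (153 and 193 uniquely mapped counts). Its 1361 counts with a single mitochondrial fragment were thus more than 3 times its 450 counts with the whole nuclear genome.

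A fragment of chromosome IV (544444-545214), between NRG1 and HEM13 and without a gene of its own, lay on the border of the rule. It was joined to the mitochondrial fragment at 941-2099 1119 times in galactose with 1 uniquely mapped count, and 1117 times in glycerol lactate with 4 uniquely mapped counts, so that it met the rule in galactose only. The same held for COS9 and SRY1 on chromosome XI (12603-17999) with a second mitochondrial rRNA fragment (57862-60544), at 426 counts in galactose with 1 uniquely mapped and 417 in glycerol lactate with 3. In all, 7 pairs in glycerol lactate and 1 in galactose had at least 3 uniquely mapped counts and at least 3 further counts from repeats, and summed to 1745 and 51 counts. With the chromosome IV pair, 6 pairs of either medium had at least 1000 counts, although the rule takes 5 of those of glycerol lactate and all 6 of galactose.

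**Figure D1:**
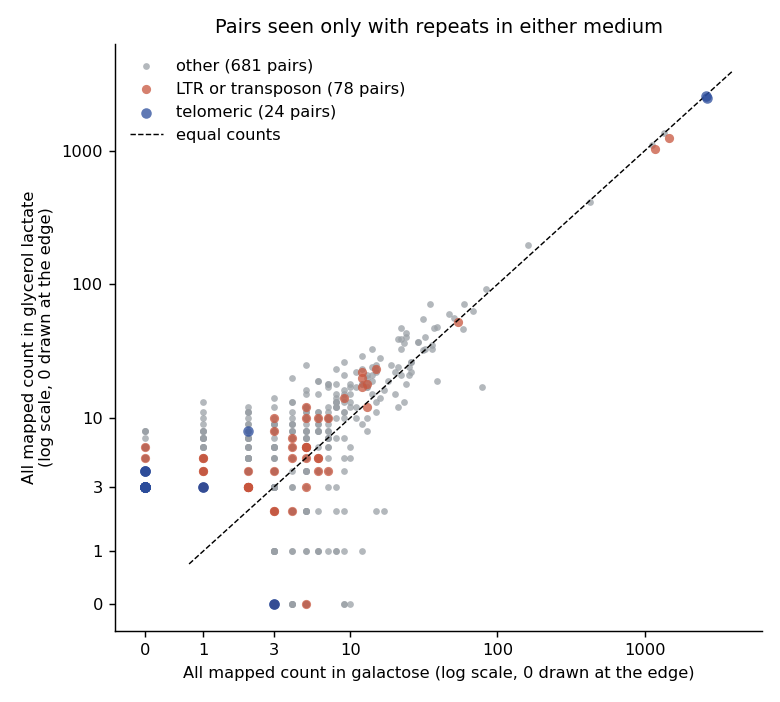
All mapped count of every pair that met the rule in either medium, in galactose (x axis) and in glycerol lactate (y axis), both on log scales with 0 drawn at the edge. Telomeric pairs (blue) and LTR or transposon pairs (red) lie among the highest counts, where all 5 pairs with at least 1000 counts in both media that met the rule in both sit on or just under the line of equal counts (ratios of 0.854 to 0.999). Telomeric pairs are also found at 3 to 8 counts in glycerol lactate with 0 to 2 in galactose.

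By annotation, LTR fragments in both media and telomeric fragments in glycerol lactate made a larger share of the pairs than of all nuclear fragments, and both were a minority. The rule takes pairs that need repeats, so a larger share of repeated annotations is in part set by this choice. A telomeric element lay on 19 of the 302 nuclear fragments in glycerol lactate (6.29%) and on 3 of 142 in galactose (2.11%), against 149 of all 13593 listed nuclear fragments (1.1%). Counted as pairs, 22 of 668 (3.29%, 95% interval 2.18 to 4.94) and 4 of 375 (1.07%, 0.416 to 2.71) were telomeric. Counted as ligation products the share was 36.5% and 36.9%, nearly all of it in the pairs of chromosomes IX and X with COB. Without these the telomeric pairs of glycerol lactate numbered 20 and held 68 counts, between 3 and 8 each. Among pairs that reached 3 counts with uniquely mapped sequences, none of 1208 in glycerol lactate and none of 76 in galactose was telomeric. Telomeric fragments that lose their counts with uniquely mapped sequences, as those of chromosomes IX and X did, could hardly enter that set.

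The lesser telomeric pairs of glycerol lactate touched the ends of many chromosomes. The highest had 8 counts and lay on the right end of chromosome VII (1082030-1084919) with COS6 and YRF1-3, a Y' helicase gene. Its partner was again the COB fragment at 40385-41560. Of the 22 telomeric pairs, which lay on 10 chromosomes, 2 had at least 3 counts in galactose, 3 had 1 or 2, and 17 had none. In galactose the telomeric pairs other than those of chromosomes IX and X with COB had 3 counts each. Of the 45 listed fragments with a YRF1 gene 5 were members in glycerol lactate (20 counts) and 0 in galactose, where 2.22% and 1.04% of all listed nuclear fragments were members, so that the 0 of 45 carries no information. All 149 telomeric fragments together gave 0 pairs of 3 uniquely mapped counts, which repeated telomeric fragments can hardly reach. A count of 3 in one library against 0 in the other is not detectable as a difference at this depth.

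LTRs and transposons lay on 37 of the 302 nuclear fragments in glycerol lactate (12.3%) and on 13 of 142 in galactose (9.15%), against 392 of 13593 (2.88%). They made 10.5% (8.38 to 13) and 9.6% (7.02 to 13) of the pairs, and 2.98% and 5.26% of the pairs that reached 3 counts uniquely mapped. This difference, too, is in part set by the rule. Most of their 2685 and 2904 counts belonged to the delta fragments of chromosomes I and VII. The other 68 pairs in glycerol lactate had a median of 3.5 counts and a highest of 23, and the other 34 in galactose a median of 5 and a highest of 54. The latter was a fragment of chromosome VII with parts of a Ty1 and a Ty2 element and ARS721 (564425-571906), joined to the rRNA fragment at 57862-60544. It had 52 counts in glycerol lactate, 3 of them uniquely mapped, and so did not meet the rule there. An annotated transposon, in whole or in part and as opposed to LTRs only, lay on 25 of the 302 nuclear fragments in glycerol lactate (8.28%). In galactose it lay on 4 of 142 (2.82%), against 177 of all 13593 listed fragments (1.3%). These fragments had 113 and 77 counts.

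A tRNA gene lay on 20 of the 302 nuclear fragments in glycerol lactate (6.62%, 4.33 to 10) and on 6 of 142 in galactose (4.23%, 1.95 to 8.91), against 2.18% of all fragments. The rule takes pairs that need repeats, which in part sets these shares too. As pairs they made 6.89% and 8%, with a highest count of 46 and 58. Both of these belonged to ORT1, the mitochondrial ornithine transporter, on chromosome XV (569561-572331), joined to a mitochondrial fragment annotated as an RNA that is neither rRNA nor tRNA (85590-85779). A replication origin lay on 4.97% of the nuclear fragments of the pairs in glycerol lactate and 8.45% in galactose, against 2.34% of all fragments. As pairs these made 12.1% and 5.6%. The 12.1% rested on a single fragment next to the rDNA, that of ARS1216, and was 3.93% without it. Fragments without any feature made 5.09% and 8%, against 7.5% of all. A protein gene lay on 82% and 88.3%, against 90%. Within 30 kb of a chromosome end lay 10.5% and 8.8% of the pairs, against 7.86% of all fragments.

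**Figure D2:**
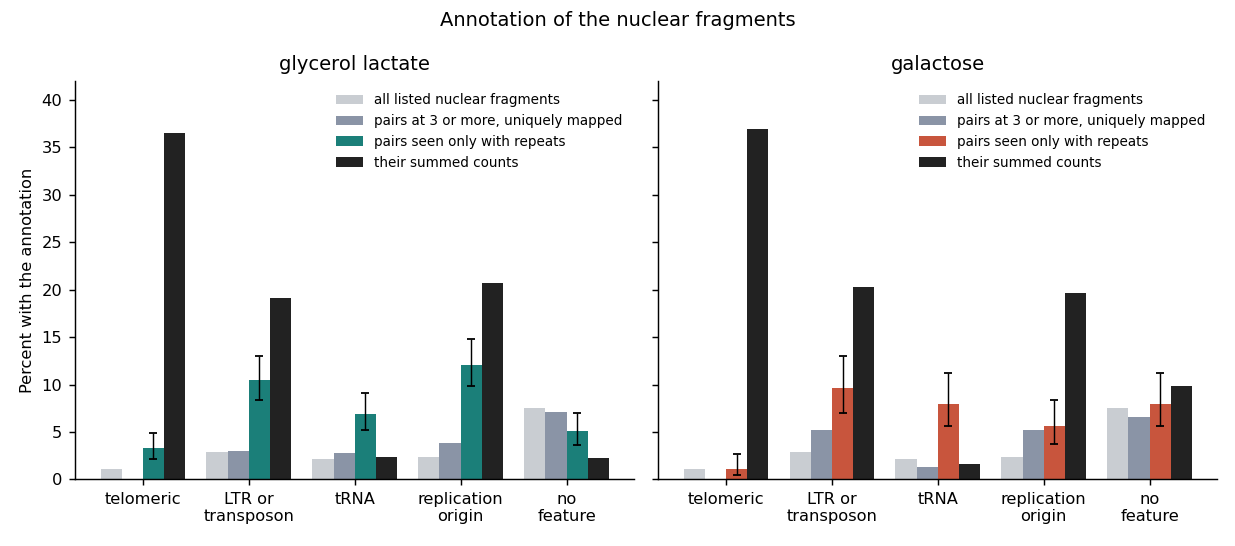
Percent with each annotation in glycerol lactate (left) and galactose (right) among all listed nuclear fragments, the pairs that reached 3 counts uniquely mapped, the pairs seen only with repeats (error bars are 95% Wilson intervals) and the summed counts of the latter. Telomeric fragments held 36.5% and 36.9% of the counts but 3.29% and 1.07% of the pairs, and LTR or transposon fragments 19.1% and 20.3% of the counts and 10.5% and 9.6% of the pairs.

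Repeated gene families gave small numbers of pairs, with low counts apart from those of the seripauperin genes of the telomeric fragments and of COS9. Over all 13593 listed nuclear fragments, 2.22% were in a pair in glycerol lactate and 1.04% in galactose, and most families hold too few fragments to be set against these shares. COS genes, which encode subtelomeric membrane proteins, lay on 4 of 22 listed fragments in glycerol lactate (84 counts) and on 1, that of COS9, in galactose (541 counts). The ASP3 genes of cell wall asparaginase gave 3 of 11 fragments in both media, with 20 and 33 counts. The single listed fragment that holds both CUP1 copies, the metallothionein genes, gave 7 pairs in glycerol lactate and 1 in galactose. Hexose transporter genes (HXT) lay on 3 of 56 listed fragments in glycerol lactate, with 4 pairs, none over 4 counts. In galactose they gave 0 pairs, which at the share over all fragments carries no information. The sodium pump genes (ENA), on 21 listed fragments, gave 2 pairs and 0, and this 0 carries no information either. Genes with a FLO name, on 59 listed fragments, gave 1 pair in each medium. Both pairs were with FLO8, so no other FLO gene was in a pair. Genes of ribosomal proteins lay on 4 of 252 listed fragments in glycerol lactate (56 counts) and 2 in galactose (30 counts). None of the 16 MAL and 12 histone fragments was in a pair, which at the shares over all fragments carries no information.

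For most pairs the nuclear fragment kept most of its nuclear counts with uniquely mapped sequences, neighbouring fragments included. A measure that the rule did not use is the part of a fragment's counts with other nuclear fragments that was kept when only uniquely mapped sequences were counted. It was at least 90% for the nuclear fragment of 408 pairs in glycerol lactate (61.1%, 57.3 to 64.7) and 253 pairs in galactose (67.5%, 62.6 to 72). Among pairs that reached 3 counts uniquely mapped it was 87.4% and 85.5%. Fragments under 90% therefore made 38.9% and 32.5% of the pairs, and they held 61.4% and 72.3% of the counts. In glycerol lactate the fragments that kept under 10% were 59 of 302 (19.5%), against 5.49% of all nuclear fragments. The measure includes counts between neighbouring fragments. These were 2333238 of the 3221104 uniquely mapped counts of glycerol lactate and 1221373 of the 2338837 of galactose. The paper left such pairs out of its replicate comparison, since they cannot be told from reads across an uncut MspI site. The share without neighbours was not computed.

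On the mitochondrial side most fragments lost counts when only uniquely mapped sequences were used. The share of mitochondrial to mitochondrial counts kept with uniquely mapped sequences had a median of 48.6% over 164 fragments in glycerol lactate and 40.7% in galactose, and 13 and 12 of them kept at least 90%. A count is lost when either end is repeated, so this share does not separate a fragment's own repeats from those of its partners. This share, too, includes counts between neighbouring fragments. In glycerol lactate 400 of the 668 pairs joined a nuclear fragment that kept at least 90% to a mitochondrial fragment that kept less, and 251 joined fragments that both kept less. The numbers in galactose were 248 and 119 of 375. Pairs with a mitochondrial fragment that kept at least 90% numbered 17 and 8. How many of the pairs have a nuclear copy of mitochondrial DNA at the nuclear fragment was not tested.

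**Figure D3:**
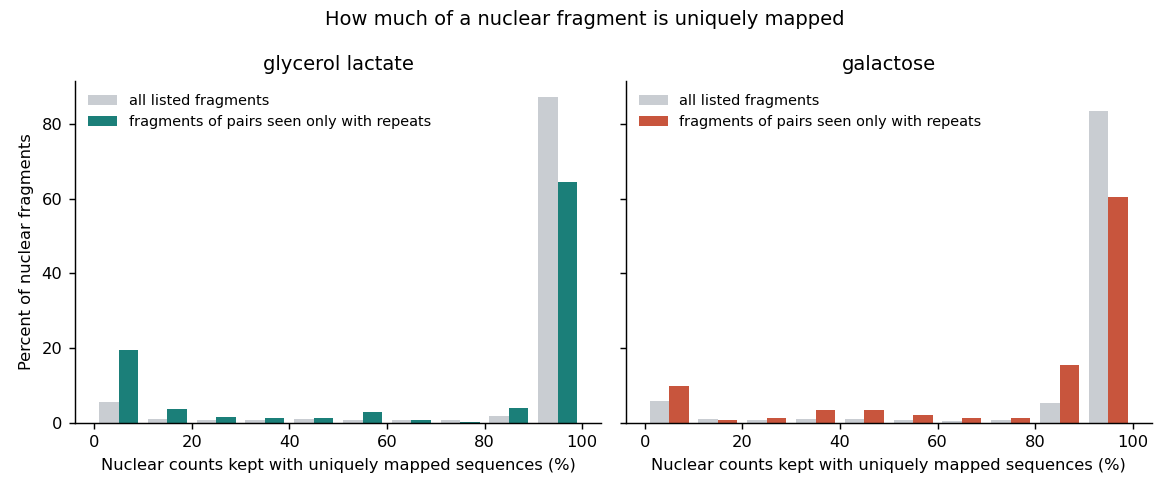
Percent of a nuclear fragment's counts with other nuclear fragments that was kept with uniquely mapped sequences (x axis), for all listed nuclear fragments (grey) and for the fragments of pairs seen only with repeats (coloured), in glycerol lactate (left) and galactose (right). Most fragments kept 90% or more in each set, and in glycerol lactate 19.5% of the fragments seen only with repeats kept under 10%, against 5.49% of all. Counts with neighbouring fragments are included.

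Nuclear fragments of the pairs were also long. Their median length was 1296 bp in glycerol lactate and 1836.5 bp in galactose, against 569 bp over all listed fragments and 970 and 1196 bp for the fragments of pairs that reached 3 counts uniquely mapped. Fragments that kept under 90% of their nuclear counts had the higher medians, 1982 and 2498 bp.

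Very short mitochondrial fragments were in many of the pairs. Fragments under 50 bp are 50 of the 171 listed but 0.901% of the length of the mitochondrial genome. They were in 162 pairs of glycerol lactate (24.3%, 21.2 to 27.6) and 95 pairs of galactose (25.3%, 21.2 to 30), and in 1.16% and 1.32% of the pairs that reached 3 counts uniquely mapped. Fragments of exactly 13 bp, of which 26 are listed, accounted for 136 and 69 of these pairs. None of the 162 and 95 pairs had a uniquely mapped count. The rule favours such fragments, since 29 of the 43 with any mitochondrial contact in glycerol lactate, and 30 of 43 in galactose, had no uniquely mapped one and could hardly enter the uniquely mapped set. The fragments of these pairs were 13 to 35 bp long, shorter than the 38 bp reads that the labels give.

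By gene, COB was in 9.58% of the pairs in glycerol lactate and 9.33% in galactose but in 55.7% and 57.3% of the counts, because of the high pairs above. Its fragments are 4.09% of those listed and 9.11% of the length of the mitochondrial genome. COX1 with its introns, which spans 17.1% of the mitochondrial genome, was in 8.23% and 8.27% of the pairs, against 17.5% and 27.6% of the pairs that reached 3 counts uniquely mapped. Its fragment at 17290-24261, which is 6972 bp long, had the most nuclear partners in both media, 27 and 14. The rRNA fragments held 10.2% and 13.1% of the counts, through CMG1 and YCS4 in both media and through COS9 in galactose. Mitochondrial fragments without an annotated gene were in 63.9% and 64.5% of the pairs, against 46.9% and 35.5% of those uniquely mapped. They are 75.4% of the listed mitochondrial fragments and 39.1% of the length. Most of the short fragments that the rule favours are among them. Of the 135 mitochondrial fragments in glycerol lactate and 112 in galactose, 111 were the same.

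Most pairs came from nuclear fragments with several mitochondrial partners. In glycerol lactate 201 of 302 fragments had 1 mitochondrial partner, 62 had at least 3, and these 62 made 389 of the 668 pairs. In galactose 68 of 142 had 1 partner and 48 had at least 3, which made 255 of the 375 pairs. GLE1 on chromosome IV (88125-89848), which encodes an mRNA export factor of the nuclear pore, had 6 partners in glycerol lactate with 368 counts and 7 in galactose with 313. Its highest count was with a fragment that holds a mitochondrial tRNA gene (120-940), at 196 in glycerol lactate, 1 of them uniquely mapped, and 162 in galactose, none uniquely mapped. Of its nuclear counts 95.1% and 94.4% were kept. In glycerol lactate its neighbours gave 178 and 229 of the 483 uniquely mapped ones.

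The same mitochondrial fragments recurred with other nuclear loci. All 6 partners of GLE1 in glycerol lactate were also partners of POL31 and SUI2 on chromosome X (450094-452135), a DNA polymerase delta subunit and a subunit of the translation initiation factor eIF2, of ESL2 on chromosome XI (626895-629258), and of a fragment without a gene on chromosome VII (413087-413585). They are the tRNA fragments at 120-940 and 77066-77676, the fragments without a gene at 4565-6222, 55430-56152 and 57827-57861, and a fragment in COX1 (24873-26193). In galactose all 6 were again partners of GLE1, of POL31 with SUI2 and of the chromosome VII fragment, and 4 were partners of ESL2. Which of them was highest differed between the nuclear loci. GLE1 was highest with the fragment at 120-940, POL31 and SUI2 with that at 4565-6222 (92 and 84 counts), and ESL2 with that at 55430-56152 (37 and 29). SFH5 and ROQ1 on chromosome X (144851-146958) had 5 of the 6 as partners in both media and were also highest with 55430-56152, at 35 and 36 counts. The chromosome VII fragment was highest with a mitochondrial fragment outside this list (76620-77065, 63 and 68 counts), which lies next to the tRNA fragment at 77066-77676 (26 counts in both media).

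These 6 mitochondrial fragments were also joined to each other almost only in the all mapped table. All 15 pairs among them had at least 3 all mapped counts in both media, between 138 and 1299 in glycerol lactate with a sum of 5953. With uniquely mapped sequences the sum was 26. In galactose these sums were 5928 and 16. This did not hold for every list of partners. Among the 16 glycerol lactate partners of the YOL036W fragment of chromosome XV, 5604 of 21111 counts between them were uniquely mapped in glycerol lactate and 2199 of 11041 in galactose.

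Another list of partners was shared in full by 3 nuclear fragments, each with an LTR. TOS8 and SOE1 with a delta element on chromosome VII (325843-328632), the cyclin gene CLB1 with a delta element on the same chromosome (700582-704414) and YLR257W with a sigma and a delta element on chromosome XII (657339-659671) had the same 8 partners in glycerol lactate, with 76, 76 and 77 counts. Of these counts 1 was uniquely mapped. In galactose each had 7 partners, all from this list, with 48, 48 and 52 counts over the pairs that met the rule. Of the 8 mitochondrial fragments 5 are 13 bp long, and the highest counts were with a 745 bp fragment (11531-12275), at 17 to 23 in glycerol lactate and 12 to 15 in galactose, and a 237 bp fragment (84521-84757), at 12 to 20 and 12 to 13. The nuclear fragments differed in how much of their nuclear counts was kept, from 39.5% for TOS8 and 57.7% for CLB1 to 93.4% for YLR257W in glycerol lactate. Fragments without an LTR held much of the same list. In glycerol lactate 7 further fragments had 5 or 6 of the 8 as partners, and 6 of these have no LTR, YOL036W and the fragment with ARS1216 at 6 each and GYP7 with MFG1 at 5 among them. These loci were picked for their common partners, so the match between them is a description.

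**Figure D4:**
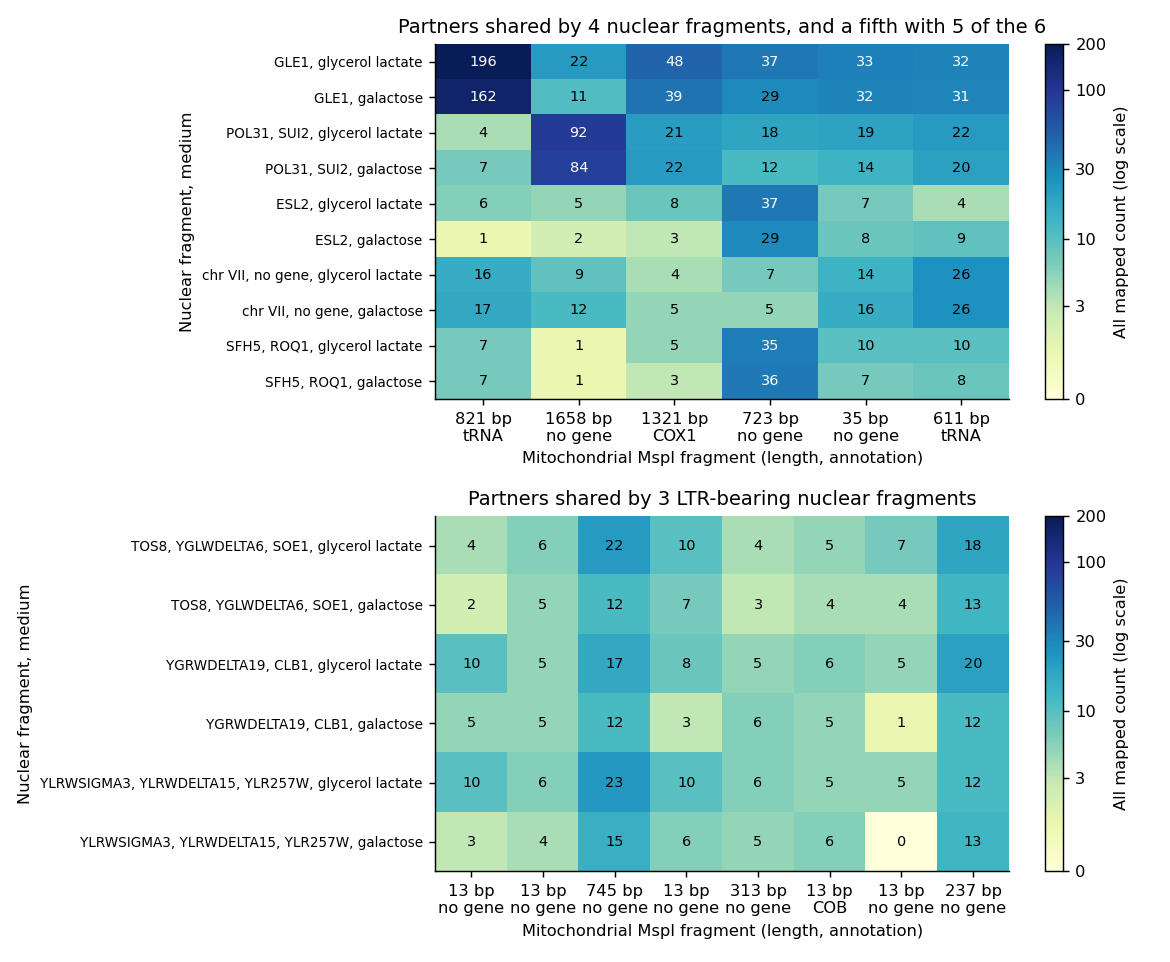
All mapped counts (numbers in the cells, colour on a log scale) between nuclear fragments in each medium (rows) and mitochondrial fragments given by length and annotation (columns). GLE1, POL31 with SUI2, ESL2 and a chromosome VII fragment share 6 mitochondrial partners in glycerol lactate with a different highest partner for each (upper panel, where the chromosome VII fragment is highest with a fragment not drawn), and 3 LTR-bearing fragments share 8 partners with much the same counts (lower panel).

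Across all nuclear fragments with at least 3 partners, the mitochondrial partners were often contacts of each other in the all mapped table. For each such fragment the highest partner was taken and the other partners were looked up among the 10 mitochondrial fragments with the most all mapped counts with it. Of 327 other partners in glycerol lactate 172 were among these 10 (52.6%), and of 207 in galactose 125 (60.4%), where 10 fragments are 5.88% of the other mitochondrial fragments. With the 10 highest uniquely mapped contacts in place of all mapped ones the shares were 13.5% and 18.8%. The 5.88% takes every mitochondrial fragment as equally likely. Partners and contacts were both taken from all mapped counts, so fragments with many such counts can be in both. An excess over 5.88% was therefore not tested. Of the nuclear fragments with exactly 2 partners, 11 of 39 in glycerol lactate (28.2%) and 10 of 26 in galactose (38.5%) had partners next to each other on the mitochondrial genome, against 1.17% of all pairs of mitochondrial fragments. PSE1, a nuclear import receptor gene on chromosome XIII (888830-890011), was such a case, with the COB fragment at 41921-43101 (60 and 47 counts) and the one before it (41561-41920, 39 and 21 counts).

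YOL036W on chromosome XV (256506-257447), an open reading frame of unknown function, had 16 partners in glycerol lactate and 15 in galactose, 13 of them the same. Its highest count was with a fragment without a gene (11072-11510), at 56 and 51. Of its 16 partners in glycerol lactate 10 are 13 bp long and had 6 to 13 counts each. None of its 192 counts in glycerol lactate was uniquely mapped, although 93.3% of its nuclear counts were.

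The fragment next to the rDNA stood apart from this pattern. At 449849-451473 of chromosome XII, with ARS1216, it ends where the rDNA region left out by the rule begins, and it had 57 mitochondrial partners in glycerol lactate, none over 9 counts and together 233. In galactose it had 4 partners with 12 counts. Of its 329 mitochondrial counts in glycerol lactate 11 were uniquely mapped, and it was joined to rDNA fragments 39401 times in the all mapped table and 3 times in the uniquely mapped one. Its other partners were rarely contacts of its highest one, with 3 of 56 among the 10. Without it, 169 of 271 other partners in glycerol lactate (62.4%) were among the 10.

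Members of 1 medium were looked up in the other library, whose counts did not choose them. Of the 668 pairs of glycerol lactate, 260 had at least 3 all mapped counts in galactose (38.9%, 35.3 to 42.7), 165 had 1 or 2 and 243 had none. Of the 375 pairs of galactose, 265 had at least 3 in glycerol lactate (70.7%, 65.9 to 75), 56 had 1 or 2 and 54 had none. For pairs that reached 3 counts with uniquely mapped sequences these shares were 0.745% of 1208 (0.392 to 1.41) and 5.26% of 76 (2.07 to 12.8), and for all listed pairs 0.335% and 1.37%. The uniquely mapped pairs were nearly all at the threshold, with exactly 3 uniquely mapped counts in 1034 of 1208 and 65 of 76, so that pairs with 3 counts are the closer comparison. Both libraries were positioned on the same repeated sequences, and the part of this in the recurrence was not tested.

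Recurrence went with the count. In glycerol lactate 6.03% of the pairs with exactly 3 counts, 42.8% of those with 4 to 9 and 94.7% of those with at least 10 had 3 or more counts in galactose. In the other direction these shares were 41%, 74.9% and 95.8%. At 3 counts the intervals were 3.8 to 9.44 and 32 to 50.5, beside shares of 0.745% and 5.26% for the uniquely mapped pairs. These intervals treat pairs as independent, which they are not, so no difference was tested with them. None of the 150 pairs with at least 10 counts in glycerol lactate was at 0 in galactose, and 1 of the 95 in galactose was at 0 in glycerol lactate. Nuclear fragments that kept at least 90% of their nuclear counts gave more recurrent pairs than those that kept less, 48.5% (43.7 to 53.4) against 23.8% (19.1 to 29.4) in glycerol lactate. The former had a median of 5 counts and the latter, which include the 57 pairs of the fragment next to the rDNA, a median of 3. In galactose the shares were 73.5% (67.8 to 78.6) and 64.8% (55.9 to 72.7).

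**Figure D5:**
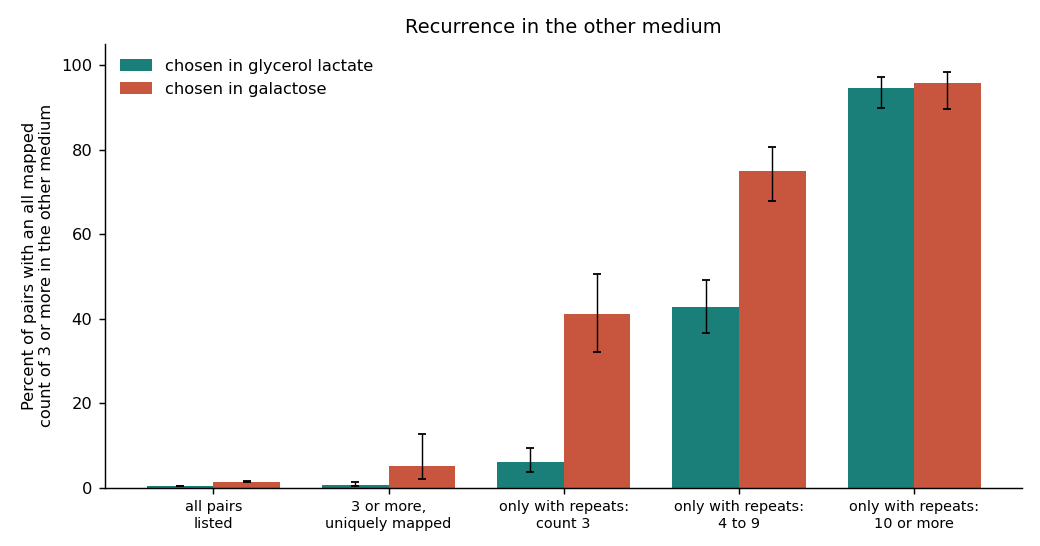
Percent of pairs chosen in one medium that had at least 3 all mapped counts in the other (bars, with 95% Wilson intervals), for all listed pairs, for pairs that reached 3 counts uniquely mapped, and for pairs seen only with repeats by their count. The share rises from 6.03% and 41% at 3 counts to 94.7% and 95.8% at 10 or more, against 0.745% and 5.26% for the uniquely mapped pairs, of which nearly all had 3 counts.

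The 260 pairs that met the rule in both media held 88.8% of the counts of glycerol lactate and 85.3% of those of galactose. Of the nuclear fragments 123 were the same, which is 40.7% of those of glycerol lactate and 86.6% of those of galactose. Across the 260 pairs the log10 counts had Pearson's r = 0.904 and the counts Spearman's rho = 0.788, given as a description because the pairs share fragments and libraries. In comparison, 73.5% and 78.7% of the pairs of nuclear fragments that reached 3 counts only with repeats were the same in both media, and 72.6% and 62.8% of such pairs of mitochondrial fragments, with neighbouring fragments left out.

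Summed over all pairs seen only with repeats, the media were alike in counts and differed in the number of pairs. Counts in glycerol lactate over those in galactose gave 0.986 (0.964 to 1.01 from counting error), and numbers of pairs gave 1.78 (1.57 to 2.02). For pairs that reached 3 counts uniquely mapped the latter ratio was 15.9. The limit for uniquely mapped counts bears on the ratio of the counts. Pairs with at least 3 further counts from repeats were left out by it, 7 in glycerol lactate (1745 counts) and 1 in galactose (51). The ratio with these pairs included was not computed. The near equality of the counts rested also on the highest pairs. Without pairs of 1000 counts or more the ratio of the counts was 1.38. The 5 shared pairs of that size had ratios between 0.854 and 0.999, all with more counts in galactose, and their summed counts gave 0.941. The 23 shared pairs with 20 to 49 counts in both media gave 1.23 and the 24 with 10 to 19 gave 1.2. The scale for depth depends on the counts used. The total counts gave a ratio of 1.2 in the all mapped and 1.38 in the uniquely mapped tables, while counts between neighbouring nuclear fragments gave 1.9 in the all mapped tables and those between neighbouring mitochondrial fragments 1.74. All Mito-nDNA counts without a cut-off gave 2.42.

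Among shared pairs with at least 50 counts in a medium, the most unequal were those of COS9 with VAR1, the gene of a mitochondrial ribosomal protein, and of TFC3. COS9 and SRY1 were joined to the VAR1 fragment at 49117-50115 17 times in glycerol lactate and 79 times in galactose, a ratio of 0.215. With a fragment just before it at 48454-49105, also in VAR1, the order was turned, with 47 and 22 counts. TFC3, which encodes a subunit of the RNA polymerase III factor TFIIIC, on chromosome I (148344-149997) was joined to a 216 bp mitochondrial fragment without a gene (34312-34527) 71 and 35 times, a ratio of 2.03. These differences have no replicate check.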

How the data were processed

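The authors positioned paired-end reads of GCC libraries with SOAP, without mismatches, and assembled MspI fragment pairs with Topography 1.19. They deposited counts per fragment pair, without normalization and with 2 biological replicates combined, once for uniquely mapped and once for all mapped sequences of each medium. Every pair of different fragments was listed in both orders with equal counts in all 4 tables and was counted once here. Coordinates count from 1 on the RefSeq sequences the authors used, which are older than R64, and the R64 gene table was used for names only. Fragment annotation came from the tables. Members, annotation groups and named loci were chosen with earlier results of these data known. The text names the highest pairs and fragments of each medium, of both together and of each annotation group, and further loci picked after their partners were seen. Shares have 95% Wilson intervals, split ratios exact binomial ones, and ratios of sums log-scale ones. All cover counting error only and are too narrow, since pairs share fragments. The rule was tested on simulated data, where 200 of 200 planted pairs were recovered. Tables were handled with pandas 2.3.3 and numpy 2.4.6 under Python 3.11.15, intervals were computed with scipy 1.17.1, and matplotlib 3.10.9 drew the figures. The alternatives changed the cut-offs, chromosome ends, highest pairs, short fragments and scaling. A further one counted nuclear fragments with identical profiles once, which removed no pair.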

Additional observations from a re-analysis of the deposited data

How the results depend on the processing

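Of 92 values recomputed under other settings, 69 stayed within 1.5 times (counts of pairs) or within the 95% interval (shares and the ratio of sums). These include the setting that counted nuclear fragments with identical profiles once. It removed no pair (668 and 375 as before), so its values could not move and say nothing on stability. A cut-off of 4 or 5 gave 386 or 303 pairs in glycerol lactate, and a cut-off of 5 gave 229 in galactose. The telomeric share of pairs in glycerol lactate was 1.55% and 0.99% at these cut-offs. The telomeric share of counts in glycerol lactate was 38.4% and 39.3% at cut-offs of 4 and 5, 54.4% with no uniquely mapped count allowed, 39.1% without mitochondrial fragments under 50 bp, and 0.754% without the 2 highest pairs. In galactose it was 38.1% at a cut-off of 5, 47.2%, 38.2% and 0.0665% under the last 3. Without pairs of 1000 counts or more, a setting chosen after seeing the data, it was 1.27% and 0.154%, and the ratio of summed counts was 1.38. This ratio was 0.948 and 0.935 at cut-offs of 4 and 5, 0.845 with no uniquely mapped count allowed and 0.952 without short mitochondrial fragments. Per count of the all mapped tables it was 0.823, and per Mito-nDNA count 0.408. Leaving out the fragment next to the rDNA, also chosen after seeing the data, moved none of these values beyond the limits above. No paired analysis was possible because each medium has 1 combined library. Pairs with 3 counts are at the limit of what the depth can show.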
